A study of Saccharomyces cerevisiae with 16 samples.

Results

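The proteasome genes of budding yeast were followed through the first minutes of alkaline stress. The set holds 34 of the 6174 genes with a row in the deposited table. It was chosen by systematic name and not by measured values, though with earlier results of these data known. It holds 14 subunits of the 20S core particle, 18 subunits of the 19S regulatory particle, the core assembly factor UMP1 and the transcription factor RPN4. SEM1, a small lid subunit, is outside the set and had no value on any array. Each of 16 two-colour arrays compared RNA from cells exposed to 20 mM KOH with RNA from cells of that strain exposed to 20 mM KCl for equally long. There were 4 groups of 4 arrays: the msn2 msn4 mutant at 30 min, the 30 min wild type, the 10 min mutant and the 10 min wild type. The wild type was W303-1A and the mutant was MCY5278, which carries msn2::kanMX4 and msn4::hphMX4 and so lacks the stress transcription factors Msn2 and Msn4. All cultures were grown in YPD rich medium at 28 ºC before the salt or base was added, and each genotype was represented by 1 strain. The comparison of strains asks how much of the response to alkaline pH passes through Msn2 and Msn4.

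The 26S proteasome degrades proteins that carry ubiquitin chains. Its 20S core is a stack of alpha and beta rings with the proteolytic sites inside. The 19S regulatory particle caps the stack: its base unfolds substrates with a ring of ATPases, and its lid removes the ubiquitin. In budding yeast most proteasome genes share a promoter element bound by Rpn4, an activator that the proteasome itself degrades, so that the set is known to rise together when degradation falls behind.

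The values are log2 ratios, read as KOH over KCl, after each array was centred on its own median. Base 2 and this direction are likely rather than stated. A positive ratio in a whole culture cannot tell a change in some of the cells from a smaller change in all of them. Arrays held between 2073 and 5443 values. KOH carried Cy3 on arrays 1 and 4 of every group and Cy5 on arrays 2 and 3, and KCl the other dye. The titles of the arrays are numbers, and array 4 of every group has one from a different run of numbers; this split, called the title series, is an inference from the titles, and the labels do not say what it stands for. The labels name 2 biological replicates with swapped dyes but do not say which arrays share an extract, so arrays were the units of the tests and the p-values are too small where they do. In every group the opposite-dye pairs most alike over the genes outside the set were arrays 1 with 2 and arrays 3 with 4. MSN2 had values on 8 of 8 mutant and 8 of 8 wild-type arrays, and MSN4 on 5 and 7, but a ratio of mutant to mutant does not check a deletion.

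The arrays of the 30 min mutant stood apart from each other. Arrays 1 and 2 correlated at 0.87 and arrays 3 and 4 at 0.86 over the genes outside the set, whereas the pairs across these lay between 0.54 and 0.64. The median of the proteasome genes was -0.02 and 0.00 on arrays 1 and 2, and 0.61 and 0.48 on arrays 3 and 4. On array 1, 15 of 33 measured members lay above 0, and on array 2, 15 of 31. All 32 measured members lay above 0 on array 3 and 33 of 34 on array 4. The other 12 arrays had medians between 0.10 and 0.45. Every mean of the 30 min mutant is therefore a mean over these unlike pairs.

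**Figure D1:**
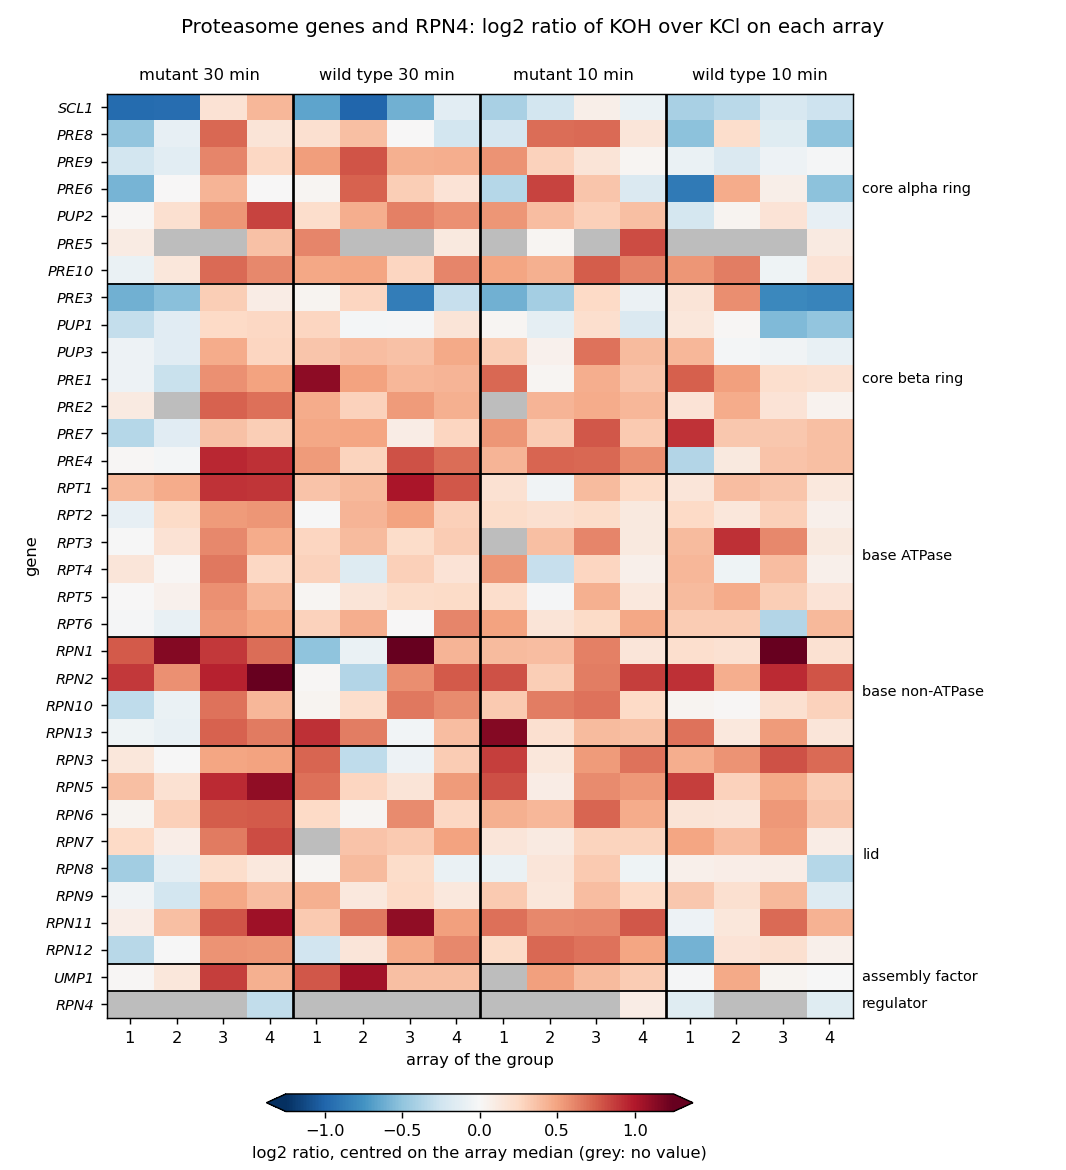
Each cell is the log2 ratio of KOH over KCl of 1 gene (rows, by subcomplex) on 1 array (columns 1 to 4 of each group), with red above 0, blue below 0 and grey for no value. In the 30 min mutant the left 2 columns have medians of -0.02 and 0.00 and the right 2 of 0.61 and 0.48, while RPN1, RPN2 and RPT1 are red in all 4; RPN4 has 4 values in all.

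Proteasome genes were on the whole slightly higher in KOH than in KCl, by less than 2-fold. The median over the 32 tested members was 0.28 in the 30 min mutant (all genes tested 0.02), 0.34 in the 30 min wild type (0.02), 0.37 in the 10 min mutant (0.01) and 0.20 in the 10 min wild type (-0.04). The highest fitted ratio of any member was 0.94, for RPN2 in the 30 min mutant. Positive ratios were found for 28 of 32 members in the 30 min mutant, 30 in the 30 min wild type, 29 in the 10 min mutant and 23 in the 10 min wild type. With arrays as units, limma's adjusted p was below 0.05 for 11, 14, 14 and 8 members in that order of groups, and all but 1 of these were higher in KOH. The exception was SCL1 in the 30 min wild type.

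These counts rest on arrays being separate replicates. When arrays 1 with 2 and 3 with 4 were averaged into 2 replicates a group, an alternative chosen after the data were seen, 1 of 31 members passed in the 30 min mutant (RPN2), 1 of 31 in the 30 min wild type (RPT1), 1 of 29 in the 10 min mutant (RPN11) and 2 of 32 in the 10 min wild type (RPN2 and RPN3). Of all genes tested in that way, 19.5%, 23.4%, 21.3% and 28% passed. Over the 16 ways to pair arrays of opposite dye the count ran from 1 to 16, 1 to 20, 1 to 17 and 2 to 15 in the same order. Averaging pairs cannot change the mean of a gene with all 4 values, so an unchanged estimate is no support for it. The SE did change: RPN2 in the 30 min mutant was 0.94 ± 0.24 (SE) after averaging and 0.94 ± 0.16 with arrays as units. In what follows, "rose" and "fell" stand for genes past the threshold with arrays as units.

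**Figure D2:**
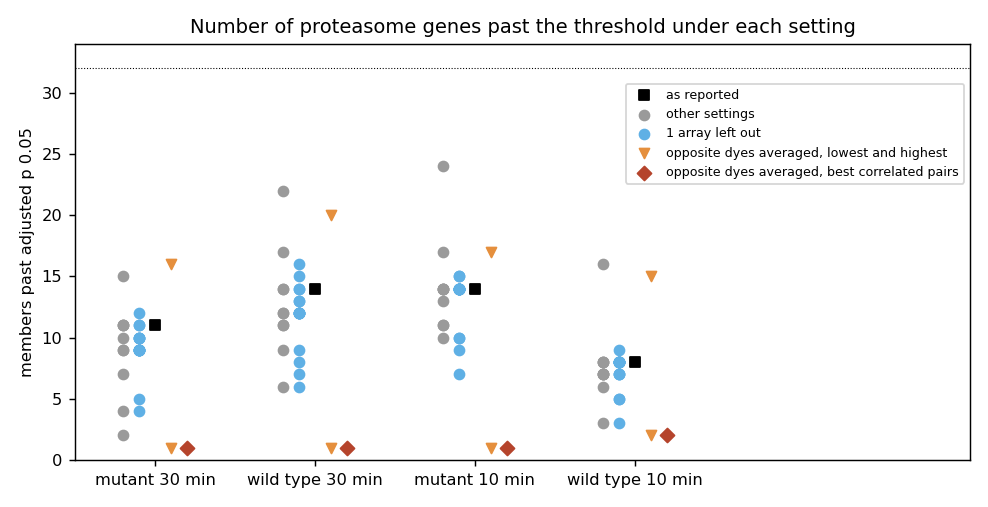
The y axis counts the members past an adjusted p of 0.05, out of 32 tested (dotted line), in each group; black squares are the counts as reported (11, 14, 14 and 8), blue points leave out 1 array, and grey points are the other settings. Orange triangles mark the lowest and highest counts over the pairings, and red diamonds the best correlated pairs, at 1 or 2 members.

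In the 30 min mutant, 11 of 32 members rose and none fell, against 41.1% of all 4234 genes tested that passed in either direction, 22% higher and 19.1% lower. Members of the base and the lid led. RPN2 (YIL075C), a scaffold of the base, had ratios of 0.88, 0.57, 0.97 and 1.34 on arrays 1 to 4 of the 30 min mutant. All 4 arrays were high, also the 2 on which the set as a whole lay near 0, and the fitted ratio was 0.94 ± 0.16 (SE, n = 4 arrays, limma adjusted p = 0.000233). RPN1 (YHR027C), the other scaffold, stood at 0.77, 1.14, 0.88 and 0.70, with a fitted ratio of 0.87 ± 0.31 (adjusted p = 0.0328). Its call ended without array 1, 2 or 4 of the group (adjusted p = 0.105, 0.0655 and 0.0868), with the title series as a block (0.0623) and in the larger title series alone (0.148). The ATPase RPT1 (YKL145W) had 0.40, 0.46, 0.90 and 0.90, with a fitted ratio of 0.67 ± 0.13 (adjusted p = 0.00101). These 3 base subunits were thus well above 0 on every array of the group.

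Of the members that rose in the 30 min mutant, core and regulatory alike, all but RPN1 were higher on arrays 3 and 4 than on arrays 1 and 2. In the core, PRE2 (YPR103W), which carries the chymotrypsin-like site, had 0.11, 0.73 and 0.69 on arrays 1, 3 and 4 and no value on array 2 (fitted 0.53 ± 0.14, n = 3 arrays, adjusted p = 0.00915; 0.0681 without array 4). The beta ring subunit PRE4 (YFR050C) had 0.01, -0.02, 0.94 and 0.91 (0.46 ± 0.17, adjusted p = 0.0427). The alpha ring subunit PUP2 (YGR253C) had 0.02, 0.20, 0.55 and 0.84 (0.40 ± 0.13, adjusted p = 0.0233). For PRE4 the arrays fall into a pair near 0 and a raised pair, and its call ended in 16 of 29 other settings, among them without array 3 or array 4 (adjusted p = 0.233 and 0.249). PUP2 also missed without array 3 or array 4 (adjusted p = 0.0905 and 0.187). The other 5 that rose were RPT2 (0.30 ± 0.12), RPN5 (0.65 ± 0.15), RPN6 (0.46 ± 0.14), RPN7 (0.45 ± 0.13) and the deubiquitinase RPN11 (0.58 ± 0.16). Without array 3 of this group 5 members passed (RPT1, RPN1, RPN2, RPN5 and RPN11). Without array 4, and also in the larger title series alone, 4 passed: RPT1, RPN2, RPN5 and SCL1, the last of them lower in KOH. With the title series as a block 7 passed, and with only this group in the fit 2 passed (RPN1 and RPN2).

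In the 30 min wild type, 13 members rose and 1 fell, against 38% of 4288 genes that passed, 19.2% higher and 18.8% lower. RPN11 (YFR004W), the lid's deubiquitinase, had 0.33, 0.66, 1.11 and 0.51 on the 4 arrays, fitted at 0.65 ± 0.16 (adjusted p = 0.00428). For RPT1 the values were 0.35, 0.40, 1.02 and 0.77 (0.64 ± 0.13, adjusted p = 0.00126). RPN13 (YLR421C), a ubiquitin receptor, had 0.92, 0.64, -0.03 and 0.38 (0.48 ± 0.18, adjusted p = 0.0474). RPN11 and RPT1 were positive throughout, whereas RPN13 was flat on array 3. Its call ended in 18 of 29 other settings, and its adjusted p ran from 0.00445 to 0.217 over the alternatives.

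Among core genes of the 30 min wild type, PRE1 (YER012W), a beta ring subunit, had 1.12, 0.51, 0.41 and 0.43 (0.62 ± 0.16, adjusted p = 0.0062). PRE4 had 0.54, 0.28, 0.79 and 0.70 (0.58 ± 0.17, adjusted p = 0.014). Both were above 0 on every array, PRE1 highest on array 1. The PRE1 call ended without array 1 (adjusted p = 0.0602), and that of PRE4 without array 3 or array 4 (0.0655 and 0.0687). SCL1 (YGL011C), an alpha ring subunit, went the other way at -0.66, -0.99, -0.60 and -0.14. It was below 0 on all 4 arrays and was fitted at -0.595 ± 0.199 (adjusted p = 0.0263), a call that ended without array 1, array 2 or array 3 of the group (adjusted p = 0.0926, 0.135 and 0.0646). UMP1 (YBR173C) rose by 0.64 ± 0.15, and so did PRE9 (0.55 ± 0.14), PUP2 (0.47 ± 0.13), PRE10 (0.46 ± 0.15), PUP3 (0.39 ± 0.13), PRE2 (0.43 ± 0.12), RPN5 (0.41 ± 0.15) and RPN7 (0.40 ± 0.15). Leaving out 1 array of this group at a time gave 7, 9, 8 and 6 members for arrays 1 to 4, the larger title series alone gave 6, and this group alone in the fit gave 9.

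In the 10 min mutant, 14 of 32 members rose and none fell, where 36.5% of 3042 genes passed, 18.6% higher and 17.9% lower. RPN11 had 0.69, 0.60, 0.61 and 0.78 on the 4 arrays, a spread of 0.08 (SD), and was fitted at 0.67 ± 0.16 (adjusted p = 0.00324). RPN2 had 0.80, 0.30, 0.64 and 0.86 (0.65 ± 0.16, adjusted p = 0.00359). The lid subunit RPN3 (YER021W) had 0.86, 0.14, 0.53 and 0.67 (0.55 ± 0.14, adjusted p = 0.0062). Each of these was lowest on array 2, though RPN11 only barely.

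PRE4 had 0.42, 0.72, 0.72 and 0.58 in the 10 min mutant (0.61 ± 0.17, adjusted p = 0.00966). PRE10 (YOR362C), of the alpha ring, had 0.50, 0.45, 0.76 and 0.62 (0.58 ± 0.14, adjusted p = 0.00437), and PRE7 (YBL041W), of the beta ring, had 0.56, 0.32, 0.78 and 0.33 (0.49 ± 0.14, adjusted p = 0.012). All 3 were above 0.3 on every array, though PRE7 missed without array 3 (adjusted p = 0.096). The rest that rose were PUP2, PUP3 (YER094C) and PRE2 of the core, at 0.41 ± 0.13, 0.36 ± 0.13 and 0.41 ± 0.14, and RPN10 (YHR200W), RPN13, RPN5 (YDL147W), RPN6 (YDL097C) and RPN12 (YFR052W) of the regulatory particle, from 0.47 ± 0.15 for RPN10 to 0.53 ± 0.16 for RPN12. No ATPase of the base passed here: the 6 ran from 0.15 to 0.35. Without array 1 of this group 9 members passed, and without array 3, 7.

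In the 10 min wild type, 8 of 32 members rose and none fell, against 42.7% of 2670 genes that passed, 21.8% higher and 20.9% lower, so that the share that rose was near that of all genes. RPN2 had 0.91, 0.45, 0.93 and 0.78 (0.77 ± 0.16, adjusted p = 0.000679), and RPN3 had 0.46, 0.56, 0.80 and 0.71 (0.63 ± 0.14, adjusted p = 0.00174). The ATPase RPT3 (YDR394W) had 0.40, 0.91, 0.60 and 0.12 (0.51 ± 0.13, adjusted p = 0.00369). RPN2 and RPN3 were high on all 4 arrays, while RPT3 ranged widely.

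The core calls of the 10 min wild type were PRE7, with 0.90, 0.34, 0.34 and 0.38 (0.49 ± 0.14, adjusted p = 0.0105), and PRE1, with 0.74, 0.51, 0.21 and 0.19 (0.41 ± 0.16, adjusted p = 0.044). Array 1 was the highest for both, and without it neither passed (adjusted p = 0.0884 and 0.171). The PRE1 call ended in 12 of 29 other settings, among them without array 2 or array 3 (0.151 and 0.0758), with no dye term (0.052), with values as deposited (0.053) and after quantile normalization (0.075). RPT5 (0.34 ± 0.12), RPN5 (0.48 ± 0.15) and RPN7 (0.37 ± 0.13) also rose. Without array 1 of this group 3 members passed (RPT3, RPN2 and RPN3), and the same 3 passed with this group alone in the fit. Without array 2, 5 passed (those 3 with PRE7 and RPN5), and without array 3, 5 (those 3 with PRE7 and PRE10).

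The centre chosen for the arrays also moved the counts. Arrays centred on the 1477 genes that had a value on all 16 arrays put 24 members past the threshold in the 10 min mutant, 22 in the 30 min wild type, 16 in the 10 min wild type and 15 in the 30 min mutant. The calls over all genes moved too: in the 10 min mutant 693 were higher and 522 lower (565 and 544 as reported), in the 30 min wild type 988 and 669 (824 and 806), in the 10 min wild type 711 and 445 (582 and 558), and in the 30 min mutant 1014 and 737 (932 and 810). Under that centring the median of all genes tested in the 10 min wild type was 0.07, against -0.04 otherwise, and the members' median 0.31, against 0.20.

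Core and regulatory particle were compared next. Of 13 core and 18 regulatory genes tested, 3 and 8 rose in the 30 min mutant, with medians of 0.13 and 0.31. For the 30 min wild type, 7 core genes rose and 1 fell, and 5 regulatory genes rose, with medians of 0.39 and 0.30. Counts in the 10 min mutant were 6 core and 8 regulatory genes, with medians of 0.36 and 0.37, and in the 10 min wild type 2 core and 6 regulatory genes, with medians of -0.03 and 0.30. Of all genes tested, 22%, 19.2%, 18.6% and 21.8% rose in that order of groups, so that the core count was close to that share in the 30 min mutant and below it in the 10 min wild type. Differences between the particles were not tested. The core thus had the lower median in the 30 min mutant and in the 10 min wild type; the sign of the core median at 10 min in the wild type turned to 0.08 under centring on genes with all 16 values, and the order of the pair was kept under each scaling in these groups.

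Medians were also taken array by array among the 12 core and 16 regulatory genes that had values on all 16 arrays. The regulatory median was above the core median on 4 of 4 arrays of the 30 min mutant, 2 of 4 of the 30 min wild type, 3 of 4 of the 10 min mutant and 4 of 4 of the 10 min wild type. The gap was widest on array 3 of the 10 min wild type, at 0.40 for the regulatory particle and -0.04 for the core. On array 2 of the 30 min wild type it was turned, at 0.19 and 0.42. On array 2 of the 10 min wild type the gap was only 0.013. Over whatever members an array measured, the regulatory median was higher on 11 of 16 arrays. In that count array 2 of the 10 min wild type was turned, at 0.197 for the regulatory particle and 0.222 for the core. Array 4 of the 10 min mutant was turned as well, at 0.265 and 0.339.

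**Figure D3:**
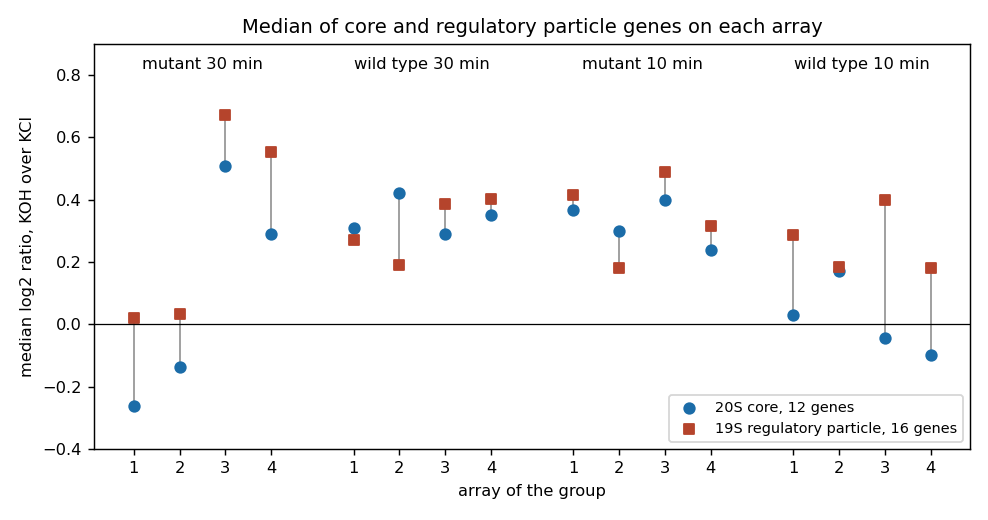
Each array (x axis, by group) has the median log2 ratio of 12 core genes (blue circles) and of 16 regulatory particle genes (red squares), joined by a grey line. Regulatory medians exceed core medians on all 4 arrays of the 30 min mutant and of the 10 min wild type. On array 2 of the 10 min wild type the gap is 0.013. Arrays 1 and 2 of the 30 min mutant lie near or below 0.

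The signs of the ratios were also counted. Of the members with all 4 values, 11 of 31 lay above 0 on all 4 arrays in the 30 min mutant (all genes 28.8%), 1 of 12 core and 9 of 18 regulatory genes among them. For the 30 min wild type it was 19 of 31 (26.6%), 9 of 13 core and 9 of 17 regulatory. The 10 min mutant had 20 of 29 (28.6%), with 7 of 12 core and 13 of 17 regulatory genes. The 10 min wild type had 15 of 32 (24.1%), with 3 of 13 core and 12 of 18 regulatory genes.

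The alpha ring forms the outer ring of the core and its gate. Its 6 tested genes had a median of 0.10 in the 30 min mutant, 0.39 in the 30 min wild type, 0.30 in the 10 min mutant and -0.15 in the 10 min wild type. In the last of these, 1 of the 6 was above 0: PRE10, at 0.33 ± 0.14 (adjusted p = 0.0751). PRE8 (YML092C) and PRE6 (YOL038W) had a strong dye difference. Their ratios were lower where KOH carried Cy3, with differences of -0.49 ± 0.15 and -0.69 ± 0.15 (Cy3 minus Cy5), which the dye term takes up, and neither passed in any group. PRE5 (YMR314W) had 7 values, all above 0, between 0.03 and 0.81, and could not be tested.

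The 7 beta ring genes had medians of 0.13 in the 30 min mutant, 0.39 in the 30 min wild type, 0.39 in the 10 min mutant and 0.12 in the 10 min wild type. The 3 genes for catalytic subunits are given one by one. PRE2 was above 0 on all 14 arrays that measured it and rose in 3 of the 4 groups, missing in the 10 min wild type at 0.21 ± 0.12 (adjusted p = 0.171). PUP1 (YOR157C), with the trypsin-like site, was above 0 on 8 of 16 arrays and its fitted ratios ran from -0.22 to 0.10. PRE3 (YJL001W), with the caspase-like site, was above 0 on 7 of 16 and its fitted ratios were between -0.22 and -0.18, none past the threshold. Differences between these genes were not tested.

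**Figure D4:**
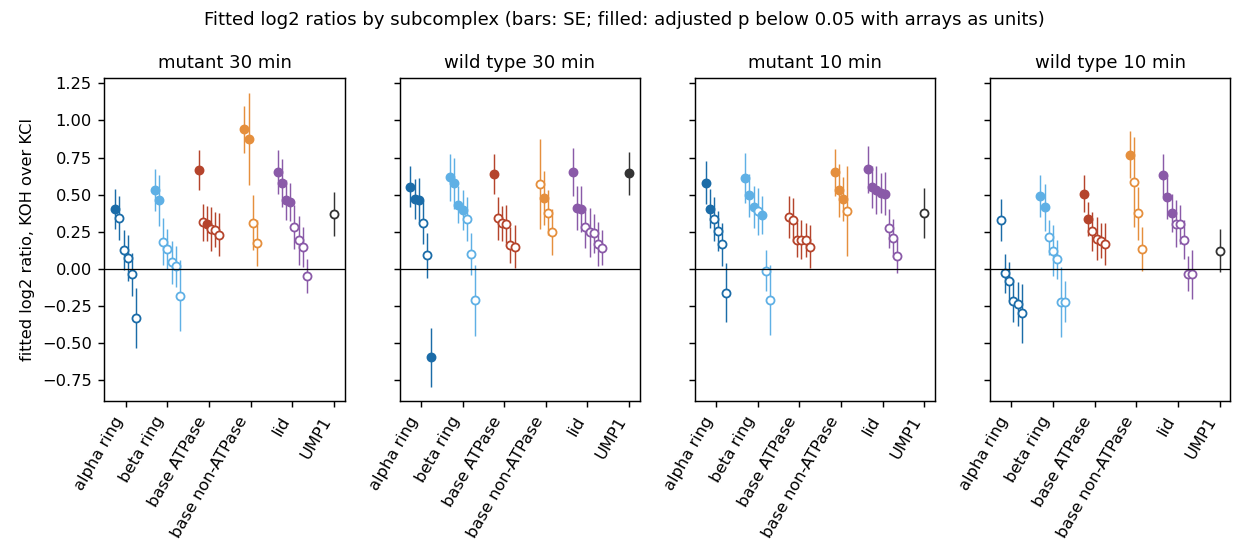
Fitted log2 ratios of KOH over KCl (y axis, points) with their SE (bars) for the tested genes of each subcomplex, in 1 panel per group; filled points passed an adjusted p of 0.05 with arrays as units. The alpha ring lies mostly below 0 in the 10 min wild type, while the base and the lid lie mostly above 0 in all 4 groups.

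The regulatory particle is given by module. Base ATPases had fitted ratios from 0.15 to 0.67, with medians of 0.29, 0.30, 0.20 and 0.23 in the 30 min mutant, the 30 min wild type, the 10 min mutant and the 10 min wild type, and all 6 were positive in every group. The 4 other base genes, scaffolds and ubiquitin receptors, had medians of 0.59, 0.43, 0.50 and 0.48 in the same order, and the 8 lid genes 0.37, 0.26, 0.51 and 0.30. RPN5, a lid subunit, was the 1 member that rose in all 4 groups, and it was above 0 on all 16 arrays. Its call in the 30 min wild type ended with any 1 of the 4 arrays of that group left out. At 10 min its calls ended without array 1 or array 3 of the group, in both strains. With arrays 1 with 2 and 3 with 4 averaged it passed in no group. Its adjusted p was then 0.0594 in the 30 min mutant, 0.193 in the 30 min wild type and 0.105 in both 10 min groups. RPN6, which bridges lid and core, was also above 0 on all 16 arrays and rose in the mutant at both times. RPN8 (YOR261C), the partner of RPN11 in the lid, ran between -0.05 and 0.14 and did not pass in any group. Over all modules, 11 of the 34 members rose in no group, 8 in 1 group, 8 in 2, 6 in 3 and 1 in 4. The 11 were SCL1, PRE8, PRE6, PRE3, PUP1, the ATPases RPT4 and RPT6, the lid subunits RPN8 and RPN9, and PRE5 and RPN4, which were not tested.

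RPN1 had 1 array far above the rest in both wild-type groups. Its ratios in the 30 min wild type were -0.50, -0.09, 2.46 and 0.42, and in the 10 min wild type 0.21, 0.19, 1.75 and 0.19. Array 3 was the high one both times, and RPN1 passed in neither group (adjusted p = 0.15 and 0.13). The 10 min mutant gave it 0.39, 0.39, 0.62 and 0.15, with no array set apart.

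UMP1, a chaperone of core assembly that the finished core degrades, had 0.02, 0.15, 0.87 and 0.45 in the 30 min mutant and 0.78, 1.05, 0.37 and 0.37 in the 30 min wild type. In the 10 min mutant it had 0.52, 0.40 and 0.32 on arrays 2 to 4 and no value on array 1, and in the 10 min wild type -0.01, 0.47, 0.03 and 0.00. It rose in the 30 min wild type (0.64 ± 0.15, adjusted p = 0.00258), a call that ended with arrays 1 with 2 and 3 with 4 averaged (adjusted p = 0.0549). The other groups missed the threshold, at 0.37 ± 0.15 (adjusted p = 0.0548) in the 30 min mutant, 0.38 ± 0.17 (adjusted p = 0.0916, n = 3 arrays) in the 10 min mutant and 0.12 ± 0.14 (adjusted p = 0.536) in the 10 min wild type.

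RPN4 (YDL020C) itself was hardly measured. It had a value of -0.30 on array 4 of the 30 min mutant, none in the 30 min wild type, 0.09 on array 4 of the 10 min mutant, and -0.15 and -0.15 on arrays 1 and 4 of the 10 min wild type. No group had the 3 values that a test required, so these arrays do not show whether the RNA of the set's own activator changed. The rule that left the other cells empty is not given in the sources used here.

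No member passed the test of the difference between strains. At 30 min, mutant minus wild type, 0 of 32 members passed limma's adjusted threshold and 2 had an unadjusted p below 0.05, where 1.01% of 3978 genes passed, 0.729% higher and 0.277% lower; the median difference was -0.06 (all genes -0.05). At 10 min, mutant minus wild type, 0 of 32 passed and 3 had an unadjusted p below 0.05, where 0.974% of 2361 genes passed, 0.0847% higher and 0.889% lower; the median difference was 0.15 (all genes 0.06). The 95% intervals had a median half-width of 0.43 at 30 min and 0.42 at 10 min. At each time 23 of 32 intervals reached a difference of 0.5 in one direction or the other, so that a difference of that size was not excluded for most members. Without array 3 of the 30 min wild type, RPN2 passed the comparison at 30 min.

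RPN2 had the lowest p of the 30 min comparison. It was 0.94 in the mutant and 0.25 in the wild type, with a difference of 0.69 ± 0.22 (95% interval 0.22 to 1.16, adjusted p = 0.0942). The wild-type arrays gave 0.02, -0.36, 0.58 and 0.76, and the groups overlapped. PRE9 (YGR135W), the alpha ring subunit that yeast can live without, differed the other way at 30 min, at 0.13 in the mutant and 0.55 in the wild type (difference -0.42 ± 0.19, adjusted p = 0.228). At 10 min the differences with the lowest p were PRE8, at 0.34 in the mutant and -0.24 in the wild type (adjusted p = 0.327), RPN12, at 0.53 and -0.04 (adjusted p = 0.373), and PUP2, at 0.41 and -0.03 (adjusted p = 0.399).

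By subcomplex, the strain difference at 30 min had a median of -0.12 for the core and 0.02 for the regulatory particle (all genes -0.05). At 10 min it was 0.25 for the core and 0.01 for the regulatory particle (all genes 0.06). The sign for the core was the same under each scaling at both times, whereas the small regulatory medians changed sign under some. Scaling does not address the unlike pairs of the 30 min mutant. Averaged over arrays 1 and 2, its core median was -0.199, and over arrays 3 and 4 it was 0.436. The same pairs of the 30 min wild type had 0.375 and 0.42. Across the 32 members, the fitted ratios of mutant and wild type had a Pearson correlation of 0.64 at 30 min and 0.62 at 10 min. Groups that differed in time correlated about as well, except within the wild type. The 30 min mutant with the 10 min wild type gave 0.72, and the 30 min wild type with the 10 min mutant 0.64. Between the times the mutant gave 0.63 and the wild type 0.43. These are correlations across genes whose values share arrays and probes, and genes are not independent replicates.

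**Figure D5:**
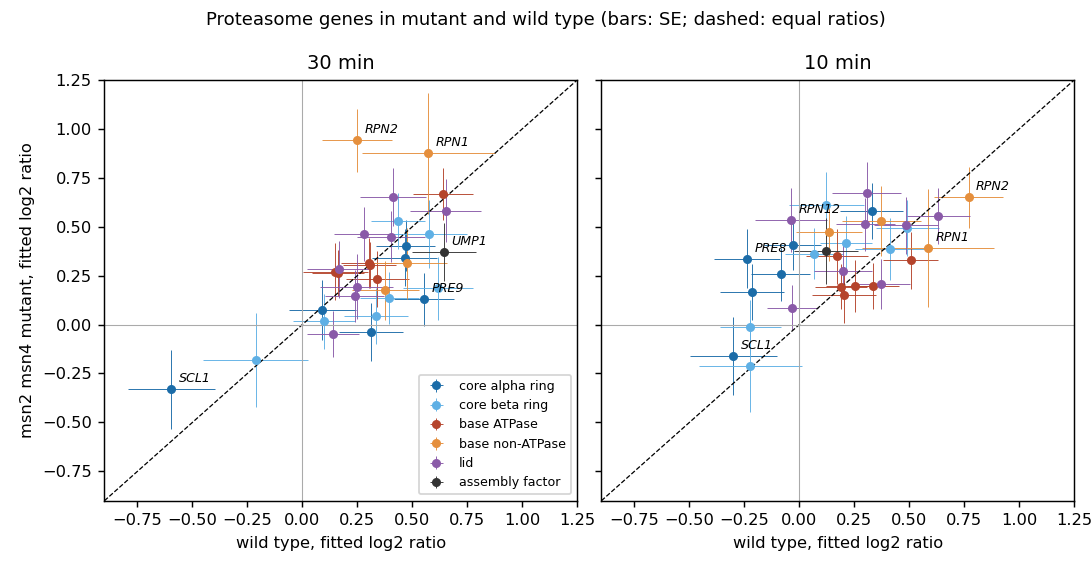
Fitted log2 ratio in the mutant (y axis) against the wild type (x axis) for each tested member at 30 min (left) and 10 min (right), coloured by subcomplex, with SE bars; the dashed line marks equal ratios. RPN2 at 30 min lies farthest above the line, at 0.94 in the mutant and 0.25 in the wild type, and none of the differences passed the threshold.

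Between the times, 1 member differed. In the wild type, 30 minus 10 min, PRE9 was higher by 0.64 ± 0.19 (adjusted p = 0.0238), and 6 members had an unadjusted p below 0.05, where 19.9% of 2607 genes passed, 6.83% higher and 13.1% lower. PRE9 had 0.53, 0.78, 0.45 and 0.46 in the 30 min wild type and -0.08, -0.18, -0.06 and -0.02 in the 10 min wild type. All 4 arrays were above 0 at the later time and all 4 below 0 at the earlier. The call ended without array 1 or array 2 of the 30 min wild type (adjusted p = 0.0517 and 0.0804), without array 2 of the 10 min wild type (adjusted p = 0.0583), in the larger title series alone (adjusted p = 0.0552), and with arrays 1 with 2 and 3 with 4 averaged (adjusted p = 0.237).

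The other members with a low unadjusted p in the wild type were PRE6 (0.53 ± 0.20), PUP2 (0.50 ± 0.18) and UMP1 (0.52 ± 0.20), higher at 30 min, and RPN2 (-0.52 ± 0.22) and RPN3 (-0.47 ± 0.20), lower at 30 min, with adjusted p between 0.066 and 0.114. The median of the wild-type difference was 0.32 for the core and 0.04 for the regulatory particle, and the core median was positive under each scaling. Without array 3 of the 30 min wild type, 4 members passed this test (PRE9, PRE6, RPN2 and UMP1), and without array 4 of the 30 min mutant, which enters through the shared spread, 2 did (PRE9 and PUP2). Without array 2 of the 10 min wild type, PRE6 passed in place of PRE9.

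In the mutant, 30 minus 10 min, 0 of 32 members passed and 2 had an unadjusted p below 0.05, where 16.1% of 2934 genes passed, 6.07% higher and 10.1% lower. RPT1 was 0.67 at 30 min and 0.20 at 10 min (difference 0.47 ± 0.19, adjusted p = 0.1). Its lowest array at 30 min, at 0.404, was barely above its highest at 10 min, at 0.393. PRE7 was 0.04 at 30 min and 0.49 at 10 min (difference -0.45 ± 0.20, adjusted p = 0.151). The medians were -0.17 for the core and -0.03 for the regulatory particle, and the regulatory median changed sign with values left uncentred. The comparisons of strains and of times share arrays, so their values are not separate evidence.

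Genes around the proteasome were tested in the same way, with single arrays as units in the counts that follow. Of 16 chaperones and accessory proteins with a row in the table, 4 rose and 1 fell among 14 tested in the 30 min mutant, 3 rose and 1 fell among 13 in the 30 min wild type, 4 rose among 11 in the 10 min mutant, and 3 rose and 1 fell among 9 in the 10 min wild type. Over all genes the shares that rose were 22%, 19.2%, 18.6% and 21.8%, and those that fell 19.1%, 18.8%, 17.9% and 20.9%, so that the accessory counts at 30 min were near the shares of all genes. POC4, a chaperone of alpha ring assembly, had 0.81, 1.46, 1.20 and 0.94 in the 30 min mutant (1.10 ± 0.26, adjusted p = 0.00449). The 30 min wild type gave it -0.98, -0.47, 1.54 and 0.52, and array 3 was again the highest, as for RPN1. Among the accessory genes 0 of 13 tested passed limma's mutant minus wild type at 30 min, where 1.01% of all genes passed. In that comparison 3 of the 13 had an unadjusted p below 0.05. BLM10, an alternative cap of the core, rose by 0.93 ± 0.15 in the 30 min mutant (adjusted p = 0.000195). DDI1, a shuttle protein that binds ubiquitin, rose by 0.91 ± 0.15 in the 10 min mutant (n = 3 arrays, adjusted p = 0.000216), and NAS2, a chaperone of base assembly, by 0.87 ± 0.22 in the 30 min wild type (n = 3 arrays, adjusted p = 0.0125).

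The remaining accessory genes with a call are named after their values were seen. DSK2 and HSM3 rose in the 30 min mutant, DSK2 and UBP6 in the 30 min wild type, BLM10, NAS6 and UBP6 in the 10 min mutant, and BLM10, TMA17 and UBP6 in the 10 min wild type. The member that fell was PBA1, another chaperone of alpha ring assembly, at -0.57 ± 0.13 in the 30 min mutant, -0.54 ± 0.13 in the 30 min wild type and -0.34 ± 0.13 in the 10 min wild type.

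Genes of ubiquitin conjugation and of the Cdc48 segregase, which extracts tagged proteins, reached larger ratios. Of 22, 10 rose and 2 fell among 20 tested in the 30 min mutant, 7 rose and 1 fell among 20 in the 30 min wild type, 5 rose among 17 in the 10 min mutant, and 9 rose among 18 in the 10 min wild type, against 22%, 19.2%, 18.6% and 21.8% of all genes. Their medians were 0.52, 0.31, 0.38 and 0.43 in that order, with no test against the proteasome or against all genes. UBC5, a stress-induced ubiquitin-conjugating enzyme, had 1.70, 1.56, 1.05 and 1.15 in the 30 min wild type (1.36 ± 0.15, adjusted p = 1.5e-05). It is nearly identical to UBC4, which had -0.169, -0.095, -0.731 and -0.459 on the same arrays. In the 30 min mutant UBC4 fell (-0.60 ± 0.15), while UBC5 had 0.655, 0.721, 1.001 and 1.048. The 2 genes thus had opposite signs on all arrays of both 30 min groups. At 10 min UBC4 had 0.071, 0.022, 0.262 and -0.274 in the mutant and 0.208, 0.035, -0.28 and -0.619 in the wild type. UBC5 had 1.339 and 1.145 on arrays 3 and 4 of the 10 min mutant. It had 0.875 on array 4 of the 10 min wild type, and both genes were above 0 on array 3 of that mutant group. How far the probes separate the pair was not tested. RSP5, an essential ubiquitin ligase, had 0.93, 1.23, 1.49 and 1.67 in the 30 min mutant (1.33 ± 0.19, adjusted p = 4.72e-05) and -0.18, 0.18, 1.11 and 1.05 in the 30 min wild type. Of this list, 0 of 20 genes passed limma's test of mutant minus wild type at 30 min, where 1.01% of all genes passed. In that test 7 of the 20 had an unadjusted p below 0.05.

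DOA4, a deubiquitinase, rose by 1.17 ± 0.22 in the 10 min wild type (n = 3 arrays, adjusted p = 0.000487). UBI4, the stress-induced polyubiquitin gene, had 1.40, 1.91, 1.55 and -0.26 in the 30 min wild type (1.15 ± 0.25, adjusted p = 0.00162). Array 4, with a title of the other series, stood below 0 there, and it was also the lowest of its group in the other 3 groups, at 0.42 in the 30 min mutant, -0.39 in the 10 min mutant and -0.24 in the 10 min wild type. Named after their values were seen, UFD1 (-0.34 ± 0.12) was the other member that fell in the 30 min mutant and SSM4 (-0.65 ± 0.18) the one that fell in the 30 min wild type. DOA1, DOA4, NPL4, SHP1 and UFD1 rose in the 10 min mutant.

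Few of the 7 regulators of Rpn4 could be tested. PDR1, a drug-resistance activator that acts on RPN4, rose by 0.54 ± 0.15 in the 30 min mutant (adjusted p = 0.0103) and by 0.62 ± 0.17 in the 10 min wild type (n = 3 arrays, adjusted p = 0.00777). YAP1, the oxidative stress activator, rose by 0.33 ± 0.12 in the 30 min mutant, 0.44 ± 0.12 in the 10 min mutant and 0.48 ± 0.12 in the 10 min wild type. MUB1, named after its values were seen, was at -0.865 in the 10 min wild type, with an unadjusted p below 0.05. It did not pass and had 0.542, -2.369 and -0.094 on arrays 1, 2 and 4. None of 3 tested passed in the 30 min wild type, and none had an unadjusted p below 0.05. The calls were thus 2 of 3 tested in the 30 min mutant, 0 of 3 in the 30 min wild type, 1 of 2 in the 10 min mutant and 2 of 3 in the 10 min wild type, where 41.1%, 38%, 36.5% and 42.7% of all genes passed, and so few genes cannot be read against those shares.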

How the data were processed

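The deposited values are 1 log ratio per gene and array, read as log2 of KOH over KCl; per the labels' protocols, RNA was reverse transcribed with oligo(dT) and labelled indirectly with Cy3 or Cy5. How the authors scanned, background-corrected and normalized the arrays, and why cells are empty, is not given in the sources used here. Base 2 was inferred from the highest value, 16.268, which is slightly above the 16 that a 16-bit scanner can give in base 2 and farther above what natural or common logarithms would allow, so the base is likely and not certain. Array medians ran from -0.285 to 0.262 and were set to 0. A limma 3.58.1 model (R 4.3.3) over the 16 arrays together held a coefficient for each group and a dye term. Genes needed at least 3 of 4 arrays and both dyes in each compared group, and p-values were adjusted by Benjamini-Hochberg over all genes tested, with a threshold of 0.05. The number of arrays limits the precision. Alternatives covered scaling, dye, title series (a split inferred from the arrays' title numbers), minimum arrays, paired dyes and single arrays. All 34 members were named through a RefSeq table. The members, the other lists and the tests were chosen with earlier results of these data known. Values on each array are given for RPN4 and UMP1 and, per comparison, for at most 3 core and 3 regulatory genes of largest change past the threshold, and at most 4 genes are named from each other list; exceptions are marked.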

Additional observations from a re-analysis of the deposited data

Results flagged for a closer look

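In 123 groups of 4 arrays, 8 had 1 array far from the other 3, and chance gives about 5 in 100 such groups. Of these, 6 lay in the 10 min wild type: PUP3 at 0.42 on array 1 (others -0.09 to -0.03), PRE7 at 0.90 on array 1 (others 0.34 to 0.38), RPT6 at -0.37 on array 3 (others 0.32 to 0.41), RPN1 at 1.75 on array 3 (others 0.19 to 0.21), RPN8 at -0.36 on array 4 (others 0.06 to 0.09) and UMP1 at 0.47 on array 2 (others -0.01 to 0.03). The other 2 were RPN6 at 0.73 on array 3 of the 10 min mutant (others 0.42 to 0.46) and PRE1 at 1.12 on array 1 of the 30 min wild type (others 0.41 to 0.51). The odd arrays were of all 4 numbers.

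PRE9 differed between groups in sign on every array. In the wild type it was higher at 30 than at 10 min by 0.638, which passed the test of that difference (adjusted p = 0.0238). At 10 min it was above 0 on all 4 mutant arrays and below 0 on all 4 wild-type arrays, by 0.341, and that difference did not pass (adjusted p = 0.562). Among the tested members, the arrays of PUP2, PRE4 and RPN12 also did not overlap between strains at 10 min. Their differences were larger than that of PRE9, at 0.436, 0.488 and 0.57, but some of their wild-type arrays were above 0. These differences did not pass the test either (adjusted p = 0.399, 0.478 and 0.373). How many of all genes separate in this way is not given here.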

How the results depend on the processing

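The number of proteasome genes past the threshold moved with the unit and the centre. The 30 min mutant (11 as reported) had 7 with the title series as a block, 4 in the larger title series alone, 2 with that group alone in the fit, 1 to 16 over the 16 pairings of opposite dyes, 1 with the best correlated pairs, and 4 to 12 with 1 array left out. The 30 min wild type (14) had 22 when centred on genes with all values, 9 with that group alone, 6 in the larger series, 1 to 20 over the pairings, 1 with the best correlated pairs, and 6 to 16 with 1 array left out. The 10 min mutant (14) had 24 when so centred, 1 to 17 over the pairings, 1 with the best correlated pairs, and 7 to 15 with 1 array left out. The 10 min wild type (8) had 16 when so centred, 3 with that group alone, 2 to 15 over the pairings, 2 with the best correlated pairs, and 3 to 9 with 1 array left out.

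For mutant minus wild type (0 at both times) the pairings gave 0 to 1 at 30 min and 0 to 1 at 10 min, and leaving out 1 array gave 0 to 1 at 30 min. For the wild type, 30 minus 10 min (1), quantile normalization gave 2, scale normalization 2, centring on genes with all values 3, the larger series 0, the pairings 0 to 8, the best correlated pairs 0, and leaving out 1 array 0 to 4. For the mutant, 30 minus 10 min (0), that centring gave 1 and the pairings 0 to 2. The best correlated pairs were chosen after seeing the data. Averaging leaves fewer replicates and the fits of 1 group have fewer arrays; otherwise the causes were not tested.

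Of 904 recomputed values of 32 named results, 783 kept their side of the threshold, 105 lost it, 9 gained it, 7 moved (all UMP1, mutant, 30 minus 10 min, a value near 0 that had no call) and 0 were reversed. Many settings cannot change the fitted ratio of a gene with all its values, such as leaving out an array of another group or averaging opposite dyes. The kept and reversed counts therefore do not measure how stable the ratios are. No paired analysis was possible because the array numbers follow the order of deposit and the labels give no number that links arrays of different groups; the pairs averaged here lie within a group. The promoter motifs planned for RPN4 and other members were not run.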
